A study of Mus musculus with 16 samples.

Results

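The genes described here are 10 genes of polyamine synthesis and breakdown in mouse liver, Odc1, Amd1, Srm, Sms, Azin1, Oaz1, Oaz2, Sat1, Smox and Paox. They were chosen by symbol from the 40324 distinct symbols of the deposited count table, and all 10 passed the filter on low counts that left 14476 genes for testing. The livers came from 16 db/db littermates. This strain carries a leptin receptor mutation that causes obesity and diabetes, and both groups carry it. Adeno-associated virus of serotype 8 (AAV8), a vector that delivers a gene to the liver, carried GFP, a fluorescent protein, in 8 mice and arcA in the other 8. Injection followed growth to about 5 weeks, and livers were taken 5 weeks after it, at an age of 10 weeks. What arcA encodes is not in the labels; in bacteria the name is used for the arginine deiminase gene, among others. The sources used here do not give the promoter that drove the transgene, and no transgene level was analysed here.

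Polyamines (putrescine, spermidine and spermine) are small positively charged molecules that bind nucleic acids and are needed for cell growth. Ornithine, which the liver makes largely from arginine, is decarboxylated to putrescine, and aminopropyl groups derived from methionine extend putrescine to spermidine and then spermine. Cells hold polyamine levels in check mainly after transcription: antizyme proteins bind ornithine decarboxylase and send it to the proteasome, and spermidine and spermine can be acetylated and oxidised back to shorter polyamines. The study compared liver RNA under arcA with that under GFP, and the counts measure RNA, not enzyme or polyamine levels.

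Changes among the polyamine genes were small. Paox, the last enzyme of the breakdown route, rose by 20.1% in arcA livers (95% interval 6.44% to 35.5%). Sat1, the enzyme that acts just before it, had a 15.0% lower level that did not pass the threshold, and no synthesis or antizyme gene passed. The 2 genes lay close to the threshold on either side (adjusted p = 0.0464 for Paox and 0.0674 for Sat1 by edgeR). In 30 alternative fits Paox passed in 7 and Sat1 in 8. Of the 10 genes, 1 passed the quasi-likelihood F test of edgeR at an adjusted p of 0.05, against 10.8% of all 14476 genes tested (4.27% higher and 6.57% lower), so the share of polyamine genes called was close to the background. DESeq2 called 2 of the 10 (Paox higher, Sat1 lower), against 14.1% of all genes it tested (5.39% higher and 8.67% lower). Groups failed to overlap for 0 of the 10 genes, and for 0.566% of all genes tested on the higher side and 1.2% on the lower side. The median size of the log2 fold change, whatever its sign, was 0.0756 over the 10 genes and 0.119 over all genes tested. Values below are CPM (counts scaled to a common library total) with TMM-scaled library sizes unless a length scale is named, and each log2 fold change sets arcA against GFP.

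Library totals lay between 28912561 and 53520828 counts in the GFP group and between 37325608 and 45874793 in the arcA group. Counts per library reached from 6745 to 14818 for Oaz1, the most abundant member, and from 55 to 190 for Smox, the least abundant. GFP 2, GFP 3 and GFP 5 carried 11.8% to 19.4% of their counts on Gm42418, a gene that overlaps ribosomal RNA sequence, against 2.29% to 7.37% in the other 13 libraries. Results that rest on those libraries are given with and without them.

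Per kilobase of annotated exon, the genes kept nearly the same order in both groups. Oaz1, the main antizyme, stood far above the rest at 98.1 ± 6.45 CPM per kb (SD over all 16 livers), and its lowest liver exceeded the highest liver of every other member. Srm followed at 15.1 ± 2.09, Sat1 at 12.5 ± 1.82, Azin1 at 11.3 ± 1.15 and Odc1 at 9.80 ± 1.48 CPM per kb. The ranges of these neighbours overlapped, and Sat1 was above Azin1 in only 9 of 16 livers. Oaz2 lay at 7.23 ± 0.439 CPM per kb, above Paox in 16 of 16 livers. Paox at 4.80 ± 0.746 and Amd1 at 4.35 ± 0.634 CPM per kb overlapped, with Paox above Amd1 in 10 of 16 livers. Sms at 0.990 ± 0.105 and Smox at 0.717 ± 0.142 CPM per kb were the lowest members. Exon lengths were the union of all exons in the GENCODE M21 annotation, retained introns included, so the length-scaled levels of genes with many such models are understated.

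**Figure D1:**
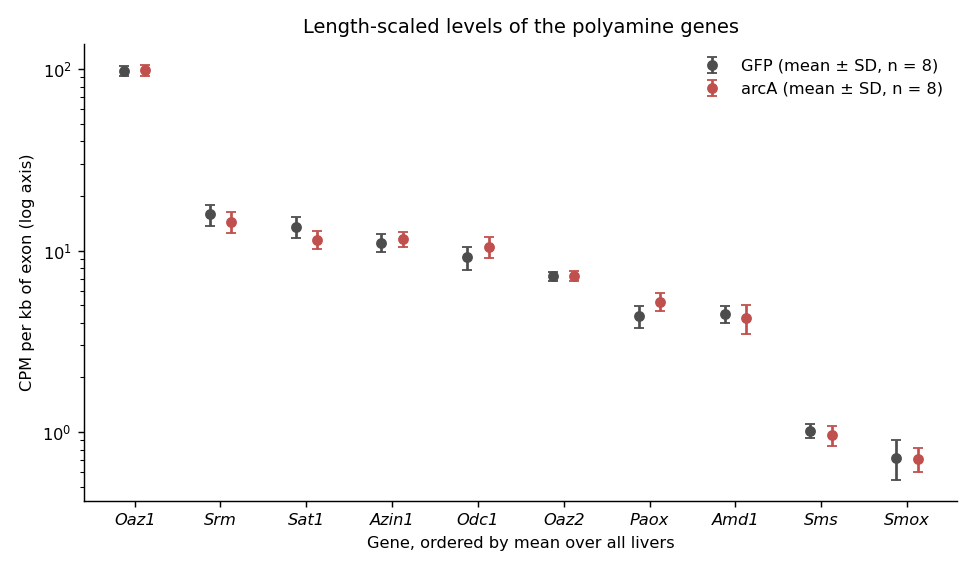
Levels of the 10 polyamine genes in CPM per kb of annotated exon (log axis), as mean ± SD of 8 GFP livers (grey) and 8 arcA livers (red), ordered by the mean over all livers. Oaz1, at 98.1 CPM per kb over all livers, stands apart, and Sms and Smox are lowest in both groups.

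The synthesis genes came first in the comparison of groups. Odc1 encodes ornithine decarboxylase, which makes putrescine and is the first committed step of the pathway (chromosome 12, 17544794 to 17551505, plus strand, GRCm38). In GFP livers Odc1 ranged from 23.2 CPM in GFP 1 to 37.5 CPM in GFP 6, with a median of 31.6, and in arcA livers from 24.5 CPM in arcA 3 to 40.7 CPM in arcA 4, with a median of 36.3. The groups overlapped, with 7 of the 8 arcA values above the GFP median and arcA 3 well below the other arcA livers. The log2 fold change of Odc1 was 0.19 (SE 0.0971, adjusted p = 0.240 by edgeR), a level 13.9% higher with a 95% interval from -1.06% to 31.2%. The Odc1 difference did not pass in any of 30 alternative fits. Without arcA 3 it was 0.24 (adjusted p = 0.0652), without arcA 3 and arcA 8 it was 0.25 (adjusted p = 0.0585), and without GFP 2, 3 and 5 it was 0.14 (adjusted p = 0.528). Of the 50-base windows of the main Odc1 transcript, 42.2% occur in transcripts of other genes. How the counting split such reads was not stated.

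Amd1 encodes S-adenosylmethionine decarboxylase, which supplies the aminopropyl groups (chromosome 10, 40287458 to 40302186, minus strand). Amd1 ranged from 13.6 to 17.9 CPM in GFP livers and from 10.8 to 19.6 CPM in arcA livers, so the arcA range enclosed the GFP range. Its log2 fold change was -0.065 (SE 0.0991, adjusted p = 0.751), with a 95% interval for the level from 17.2% lower (-17.2%) to 10.3% higher. The value of Amd1 is uncertain because 87.6% of the 50-base windows of its main transcript occur in transcripts of other genes, chiefly the near-identical Amd2, and how the counting split such reads was not stated. Amd2 had 0.888 ± 0.494 CPM in GFP and 0.872 ± 0.330 CPM in arcA livers (SD, n = 8 each) and did not pass either (adjusted p = 0.961 by edgeR).

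Srm, spermidine synthase (chromosome 4, 148591503 to 148594993, plus strand), had a lower mean in arcA livers that did not pass the threshold. Srm ranged from 20.3 CPM in GFP 2 to 31.5 CPM in GFP 8, with a median of 24.9, and from 19.8 CPM in arcA 6 to 28.2 CPM in arcA 7, with a median of 22.0. Of the 8 arcA livers 6 lay below the GFP median, and 1 lay below every GFP liver. The log2 fold change of Srm was -0.14 (SE 0.0859, adjusted p = 0.321), with a 95% interval for the level from -20.1% to 2.47%. Sms, spermine synthase (chromosome X, 157443855 to 157492287, minus strand), ranged from 5.40 to 6.84 CPM in GFP and from 4.43 to 6.61 CPM in arcA livers. Its log2 fold change was -0.085 (SE 0.0865, adjusted p = 0.602), with an interval from -16.8% to 6.84%. Of the 50-base Sms windows, 28.7% occur in transcripts of other genes. In all, 0 of the 4 synthesis genes passed by edgeR or by DESeq2, where 10.8% and 14.1% of all genes tested did. At an unadjusted p of 0.05 by edgeR 0 of the 4 passed, against 2 of all 10 members and 24.9% of all genes tested. With only 4 genes, 0 is not far from these shares.

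**Figure D2:**
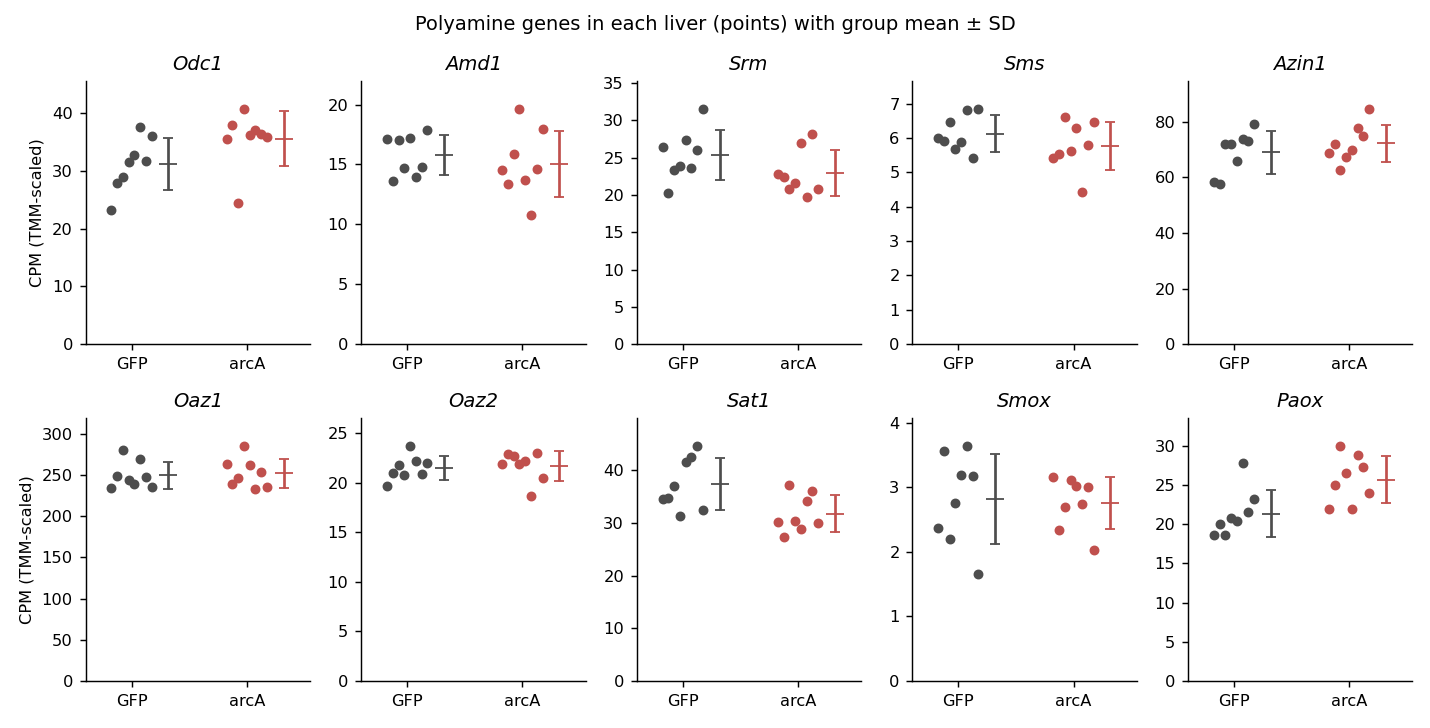
CPM of each polyamine gene in every liver (points, spread sideways by replicate number), with the mean ± SD of 8 GFP livers (grey) and 8 arcA livers (red) beside them; each panel starts at 0. The groups overlap for all 10 genes, every arcA liver exceeds the GFP median of Paox, and arcA 3 has the lowest arcA level of Odc1.

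The antizyme genes were the least changed members. An antizyme message is read through a programmed ribosomal frameshift at the end of its first reading frame, which polyamines promote, so that antizyme output can change with no change in the RNA. The stretches around this site are shown because the RNA counts do not report on that step. They were read from GENCODE M21 transcripts on GRCm38 and are given 5′ to 3′, plus strand, with the shift codon, the stop codon and the next base in capitals. The Oaz1 stretch lies at chr10:80828269-80828328 within exon 2 of the transcript used, and the Oaz2 stretch lies at chr9:65686246-65686305 within exon 3 of the transcript used.
Oaz1: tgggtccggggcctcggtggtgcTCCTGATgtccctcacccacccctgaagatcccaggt
Oaz2: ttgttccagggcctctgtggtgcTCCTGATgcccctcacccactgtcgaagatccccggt

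Oaz1 ranged from 234 to 280 CPM in GFP livers and from 233 to 285 CPM in arcA livers, ranges that nearly coincide. The log2 fold change of Oaz1 was 0.013 (SE 0.0548, adjusted p = 0.917), and the 95% interval for its level ran from -6.75% to 9.26%. With scaling on hepatocyte markers, which shifted all genes downwards, the value was -0.17 (adjusted p = 0.102). Oaz1 shares 52.2% of its 50-base windows with the pseudogene Oaz1-ps, which had 21.1 ± 1.86 CPM in GFP and 20.7 ± 1.56 CPM in arcA livers (SD, n = 8 each). Oaz2, a second antizyme that is less abundant, ranged from 19.7 to 23.7 CPM in GFP and from 18.6 to 22.96 CPM in arcA livers, and its log2 fold change was 0.014 (SE 0.0520, adjusted p = 0.909). The sign of both small values turned negative with several scalings, as listed in the closing section.

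Azin1 encodes antizyme inhibitor, a relative of ornithine decarboxylase without catalytic activity that binds antizyme and so spares the enzyme (chromosome 15, 38487427 to 38519266, minus strand). Azin1 ranged from 57.7 CPM in GFP 2 to 79.1 CPM in GFP 8 and from 62.7 CPM in arcA 3 to 84.4 CPM in arcA 8. The medians, 72.0 CPM in GFP and 70.9 CPM in arcA livers, lay the other way from the fitted log2 fold change of 0.066 (SE 0.0701, adjusted p = 0.620). Its 95% interval for the level reached from -5.39% to 15.9%, and 3 of the 8 arcA values exceeded the GFP median. None of the 50-base windows of Azin1 or Smox occurred in transcripts of other genes.

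The breakdown genes held the only call. Sat1 encodes spermidine/spermine acetyltransferase, the inducible enzyme that acetylates polyamines for export or oxidation (chromosome X, 155213132 to 155216449, minus strand). In GFP livers Sat1 ranged from 31.4 CPM in GFP 4 to 44.6 CPM in GFP 7, with a median of 35.9, and in arcA livers from 27.4 CPM in arcA 2 to 37.1 CPM in arcA 3, with a median of 30.3. The groups overlapped, with 6 of 8 arcA livers below the GFP median and 5 of 8 below the lowest GFP liver. The log2 fold change of Sat1 was -0.23 (SE 0.0802, unadjusted p = 0.00859, adjusted p = 0.0674 by edgeR), with a 95% interval for the level from -24.3% to -4.50%. Sat1 passed in 8 of 30 alternative fits, among them DESeq2 (-0.24, adjusted p = 0.0479), the fits without GFP 4, GFP 8, arcA 3 or arcA 7 alone (adjusted p = 0.0302, 0.0407, 0.0279 and 0.0437), and the fit without arcA 3 and 8 (-0.27, adjusted p = 0.0491). Sat1 also passed with scaling on hepatocyte markers (-0.42, adjusted p = 0.00917 by edgeR), which shifted all genes downwards. The last was the fit with a replicate block (-0.23, adjusted p = 0.0271 by edgeR), although the replicate numbers did not pair the livers. Without GFP 2, 3 and 5 the Sat1 value was -0.23 (adjusted p = 0.158), and without GFP 7 it was -0.19 (adjusted p = 0.142).

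Markers of several other cell types also fell in arcA livers, though not those of every type. Of 11 Kupffer cell and macrophage markers 7 fell, and the summed level of the list was 268 to 411 CPM in GFP and 111 to 375 CPM in arcA livers. Of 8 lipid-associated macrophage markers 6 fell (summed level 38.0 to 66.8 CPM in GFP and 22.3 to 50.8 CPM in arcA livers). All 9 tested of 12 T and natural killer cell markers fell (summed level of the 12, 10.5 to 22.9 CPM in GFP and 0.704 to 3.34 CPM in arcA livers). All 4 tested of 7 B and plasma cell markers fell (summed level of the 7, 51.5 to 300.3 CPM in GFP and 1.63 to 2.63 CPM in arcA livers), as did 6 of 7 stellate cell markers (241 to 312 CPM and 155 to 220.0 CPM). Neutrophil markers did not go this way: 0 of 3 tested passed, with a median log2 fold change of 0.49 (summed level of the 5 listed, 3.06 to 5.24 CPM in GFP and 1.72 to 15.1 CPM in arcA livers). Of 7 sinusoidal endothelial markers 1 fell, and of 4 bile duct markers 0 passed. No marker of these lists was at 0 in all 16 livers. The part of these cells in the Sat1 difference was not tested. In whole liver, fewer cells of a type and less RNA per cell cannot be told apart.

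Paox encodes the peroxisomal oxidase that cleaves acetylated polyamines back to spermidine and putrescine (chromosome 7, 140115799 to 140137224, plus strand). In GFP livers Paox ranged from 18.6 CPM in GFP 1 to 27.8 CPM in GFP 6, with a median of 20.6, and in arcA livers from 21.9 CPM in arcA 1 to 30.0 CPM in arcA 3, with a median of 25.8. The groups overlapped, since GFP 6 and GFP 8 lay above the lowest arcA livers, but each of the 8 arcA livers exceeded the median of the GFP livers. On the log2 scale Paox rose by 0.26 (SE 0.0834, unadjusted p = 0.00485, adjusted p = 0.0464 by edgeR). The call was close to the threshold. When 1 library was left out, the log2 fold change stayed between 0.22 and 0.33, but the call held only without GFP 6, arcA 1 or arcA 5 (adjusted p = 0.00925, 0.0333 and 0.0331) and was lost without any other single library (adjusted p up to 0.118). It was also lost without GFP 2, 3 and 5 (0.19, adjusted p = 0.265) and without arcA 3 and 8 (0.23, adjusted p = 0.0994), whereas DESeq2 kept it (0.26, adjusted p = 0.0407). Other methods lost it, with adjusted p = 0.0569 under RLE scaling, 0.0705 under upper-quartile scaling, 0.243 with library size alone, 0.0814 with a 1 CPM filter and 0.0872 by limma voom. In all, Paox passed in 7 of 30 alternative fits. Those not named above had no filter (adjusted p = 0.0477 by edgeR), surrogate variables (adjusted p = 0.0460) or a replicate block (adjusted p = 0.0260). The replicate numbers did not pair the livers.

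Hepatocyte markers moved the same way as Paox in part. Of 13 such markers 2 rose, with a median log2 fold change of 0.18 over the list against 0.0091 over all genes tested, and the summed level was 86209 to 101798 CPM in GFP and 90003 to 115691 CPM in arcA livers. Scaling the libraries on these markers shifted the median of all genes by -0.18 and left Paox at 0.083 (adjusted p = 0.573). The part of hepatocyte content in the Paox rise was not tested. Paox exons overlap 142 bases of Echs1 exons on the other strand, a gene of mitochondrial fatty acid oxidation at 288 ± 22.8 CPM in GFP and 305 ± 22.8 CPM in arcA livers (SD, n = 8 each). The strand setting of the counting was not stated, and reads in that overlap cannot be told apart. Echs1, named here after its values were seen, had a log2 fold change of 0.084 (adjusted p = 0.432 by edgeR). Gm19680 holds most of the 28.1% of 50-base Paox windows that occur in another gene, and it had 0.750 ± 0.175 CPM in GFP and 0.945 ± 0.316 CPM in arcA livers (adjusted p = 0.363).

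The 250 bases upstream of the first Paox start in RefSeq are printed because Paox is the member that passed. They lie at chr7:140125407-140125656 on GRCm38.p6, plus strand, with the GC box letters CCGCCC in capitals (the reverse complement of GGGCGG, the sequence class bound by Sp1).
Paox: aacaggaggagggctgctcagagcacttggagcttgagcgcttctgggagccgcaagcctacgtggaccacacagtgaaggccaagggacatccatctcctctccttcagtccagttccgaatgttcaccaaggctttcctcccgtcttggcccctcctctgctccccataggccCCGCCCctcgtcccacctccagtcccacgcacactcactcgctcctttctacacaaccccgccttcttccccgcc
RefSeq promoter windows of 250 bases before to 50 after a start were matched for 8 of the 10 genes (all but Srm and Azin1), in 10 windows. GGGCGG or CCGCCC occurred in at least 1 window of 7 of the 8 genes (all but Oaz1) and in 8 of the 10 windows, against 35.7% of the 32851 windows of all genes. The 2 Paox windows share 272 of their 300 bases, so the same letters are counted in both. This is a description of the letters in each window, with no factor measured.

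Smox encodes spermine oxidase, which turns spermine directly into spermidine (chromosome 2, 131491496 to 131525922, plus strand). Smox ranged from 1.66 CPM in GFP 8 to 3.64 CPM in GFP 6, and from 2.03 CPM in arcA 8 to 3.16 CPM in arcA 1. The arcA range lay inside the GFP range. Its log2 fold change was -0.034 (SE 0.150, adjusted p = 0.924), and the 95% interval for the level, -21.3% to 21.4%, does not show whether Smox moved as much as Paox or Sat1.

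**Figure D3:**
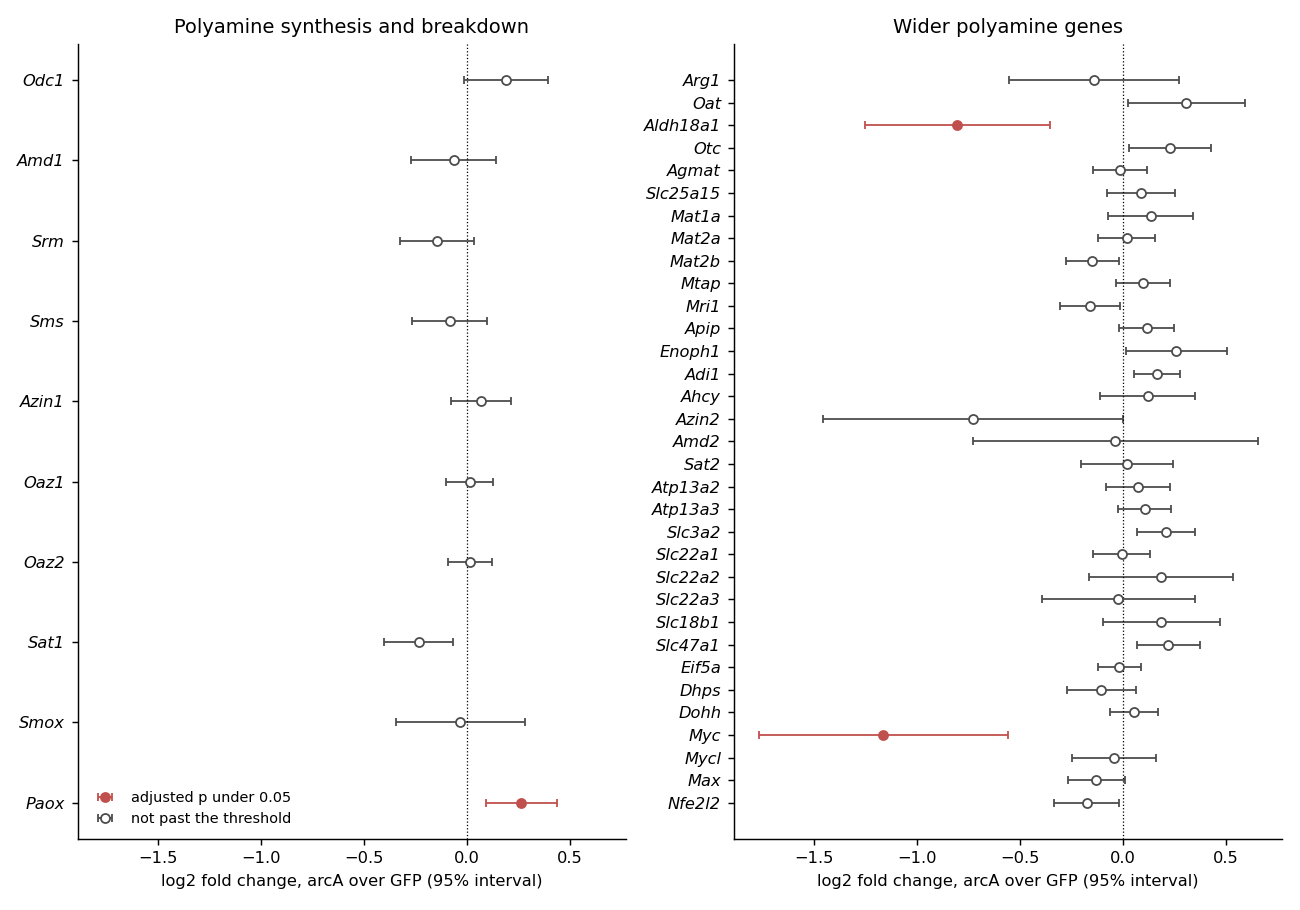
Log2 fold change, arcA over GFP, with 95% interval for the 10 polyamine genes (left) and the 33 tested wider polyamine genes (right), from the fit over all genes; filled red points passed an adjusted p of 0.05. Paox is the only filled point on the left, at 0.26, and Myc and Aldh18a1 are filled on the right, at -1.17 and -0.81.

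Sat1 and Paox act in sequence, and their ratio within a liver does not depend on how libraries are scaled. The ratio was looked at after the values of both genes had been seen, so it is given as a description with no test. Paox over Sat1 in CPM ranged from 0.482 to 0.714 in GFP livers (median 0.558) and from 0.725 to 0.913 in arcA livers (median 0.803). All 8 arcA livers lay above all 8 GFP livers, with GFP 8 and arcA 1 nearest to each other. Paox had the highest and Sat1 the lowest log2 fold change of the 10 genes. On that scale the group difference was therefore bound to be largest for their ratio. Among the 45 ratios between 2 of the 10 genes, this was the only 1 whose groups did not overlap. The same count over ratios of other genes was not made.

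**Figure D4:**
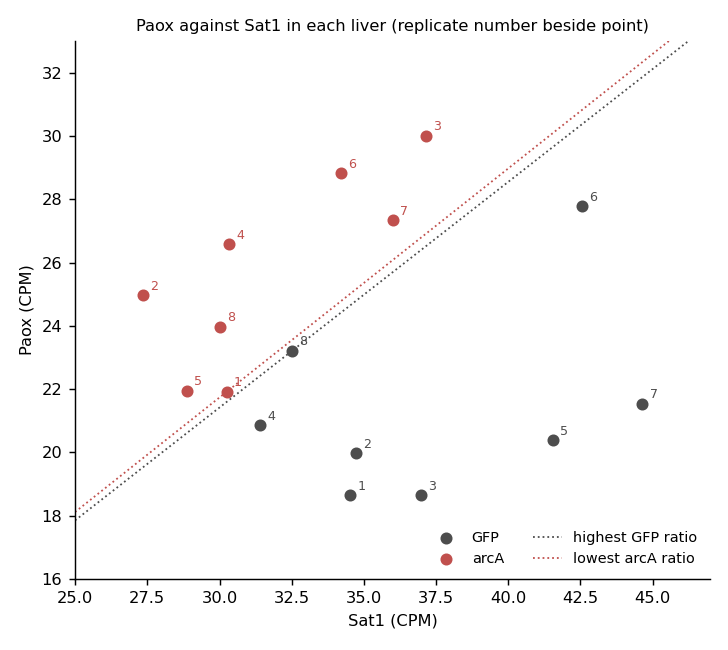
Paox against Sat1 (CPM) in each GFP liver (grey) and arcA liver (red), with replicate numbers beside the points and dotted lines at the highest GFP ratio (0.714) and the lowest arcA ratio (0.725); the axes do not start at 0. All arcA livers lie above the red line or on it, and all GFP livers lie below the grey line or on it.

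Across livers, few members moved together once the group means were removed. Of 6 pairs compared over 16 livers, Odc1 and Azin1 had the closest relation (Pearson r = 0.658, permutation p = 0.00507, adjusted p = 0.0304; Spearman rho = 0.494, permutation p = 0.0543, adjusted p = 0.326). Without GFP 1 and arcA 3, the livers farthest from the median of Odc1, r was 0.390 over 14 livers (adjusted p = 0.332, permutation test). Leaving out the extremes of Odc1 narrows its range, which can lower r by itself. This fit therefore cannot show whether the relation rested on those livers. With library size alone, where r was higher for every pair, r for Odc1 and Azin1 was 0.765 (adjusted p = 0.00312, permutation test). Sat1 and Smox had r = 0.453 (adjusted p = 0.240) and rho = 0.415, Oaz1 and Oaz2 had r = 0.329 (adjusted p = 0.427) and rho = 0.300, and Srm and Sms had r = 0.244 (adjusted p = 0.542) and rho = 0.0294, each by permutation test. For Odc1 with Amd1 and Odc1 with Sat1 r was -0.0766 and -0.107 (adjusted p = 0.772 for both, permutation test). Single livers were not extreme for all members at once. In the arcA group arcA 6 had the lowest level of 5 members (Amd1, Srm, Sms, Oaz1 and Oaz2), while arcA 3 had the highest Sms, Sat1 and Paox and the lowest Odc1 and Azin1. In the GFP group GFP 8 had the highest level of Amd1, Srm, Sms and Azin1, and GFP 1 the lowest of Odc1, Oaz1, Oaz2 and Paox.

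The genes whose deviations from the group means most resembled those of Paox, out of 11021 searched, were Gbp3, Trim12c and Copz1, with Pearson r of 0.853, 0.794 and 0.769 and Spearman rho of 0.812, 0.847 and 0.782 over 16 livers. These are the highest of many values and carry no test. Gbp3, an interferon-induced GTPase gene, fell by a log2 value of 1.18 (SE 0.269, adjusted p = 0.0114 by edgeR), opposite to the group difference of Paox. Trim12c and Copz1 had log2 fold changes of -0.083 and 0.12 and did not pass (adjusted p = 0.644 and 0.139).

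Of 40 genes around the pathway, 33 were tested and 7 were below the filter. Of the 33, 0 rose and 2 fell, with a median log2 fold change of 0.018, where 4.27% of all genes tested were called higher and 6.57% lower. An unadjusted p under 0.05 by edgeR was found for 12 of the 33 (36.4%), against 24.9% of all genes tested. The 2 that fell were Aldh18a1 and Myc. Aldh18a1 makes the glutamate-derived precursor of proline and ornithine. Myc is a growth-promoting transcription factor for which Odc1 is a textbook target.

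Among 8 genes on the ornithine side, 6 were tested and 1 fell. The log2 fold change was positive for 3 of the 6, with a median of 0.036. An unadjusted p under 0.05 by edgeR was found for 3 of the 6. Aldh18a1 (1.19 ± 0.282 CPM in GFP and 0.678 ± 0.221 CPM in arcA livers, SD, n = 8 each) fell by 0.81 (SE 0.215, adjusted p = 0.0197 by edgeR), with 7 of 8 arcA livers below the lowest GFP liver. The call of Aldh18a1 did not hold without GFP 7 (-0.73, adjusted p = 0.0502) and without GFP 2, 3 and 5 (-0.76, adjusted p = 0.0784). Aldh18a1 had 14 to 96 counts per library, and the filter at 1 CPM left it untested. Arg1, which makes ornithine from arginine, had 1391 ± 386 CPM in GFP and 1263 ± 251 CPM in arcA livers (SD, n = 8 each), a log2 fold change of -0.14 that did not pass (SE 0.195, adjusted p = 0.727 by edgeR). Of 9 genes on the methionine side 0 passed, and 4 had an unadjusted p under 0.05, which 24.9% of all genes tested had. For Mat1a, the liver enzyme that makes S-adenosylmethionine, the value was 0.13 ± 0.0989 (log2 fold change ± SE, adjusted p = 0.444). Of 8 transport genes 0 passed and 2 had an unadjusted p under 0.05, and Atp13a3, a polyamine transporter, differed by 0.10 ± 0.0618 (log2 fold change ± SE, adjusted p = 0.315). Those 2, named here after their values were seen, were Slc3a2 and Slc47a1. Their log2 fold changes were 0.21 and 0.22 (adjusted p = 0.0557 and 0.0562 by edgeR). The log2 fold change was positive for 6 of the 8 transport genes, with a median of 0.14. Of 4 genes of hypusine synthesis, the modification of a translation factor that uses spermidine, 3 were tested and 0 passed by edgeR or had an unadjusted p under 0.05. Eif5a, that translation factor, differed by -0.018 ± 0.0501 (log2 fold change ± SE, adjusted p = 0.874). Of 6 related or other breakdown genes 3 were tested and 0 passed, and Oaz3, a testis antizyme, summed to 39 counts in GFP livers and 58 in arcA livers. By DESeq2, 3 of the wider genes were higher and 2 lower, where it called 5.39% of all genes higher and 8.67% lower.

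Of 5 transcription factor genes 4 were tested, and Myc was the 1 that fell. Myc ranged from 1.44 CPM in GFP 3 to 7.16 CPM in GFP 4, with a median of 3.25, and from 0.923 CPM in arcA 5 to 2.44 CPM in arcA 8, with a median of 1.49. All 8 arcA livers lay below the GFP median and 4 lay below the lowest GFP liver, but the groups overlapped. On the log2 scale Myc fell by 1.17 (SE 0.287, adjusted p = 0.0141 by edgeR) and passed in all 30 alternative fits, with values from -1.52 without GFP 2, 3 and 5 to -0.94 without GFP 4. Myc is also expressed by immune cells, whose markers fell as given above, and the part of those cells in its fall was not tested. Odc1, Srm and Amd1 did not pass in that comparison, as above.

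The Myc-binding letters CACGTG (an E-box, the same on both strands) were searched in the 10 RefSeq windows of the polyamine genes and found in 1, upstream of the first Sms start, against 7.15% of the 32851 windows of all genes. The stretch lies at chrX:157492451-157492510 on GRCm38.p6, minus strand, and the motif begins 196 bases before that start.
Sms: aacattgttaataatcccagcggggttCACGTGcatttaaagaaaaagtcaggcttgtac
The Odc1 window held no such letters, which says only that they are not in those 300 bases. Sms had no called change.

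**Figure D5:**
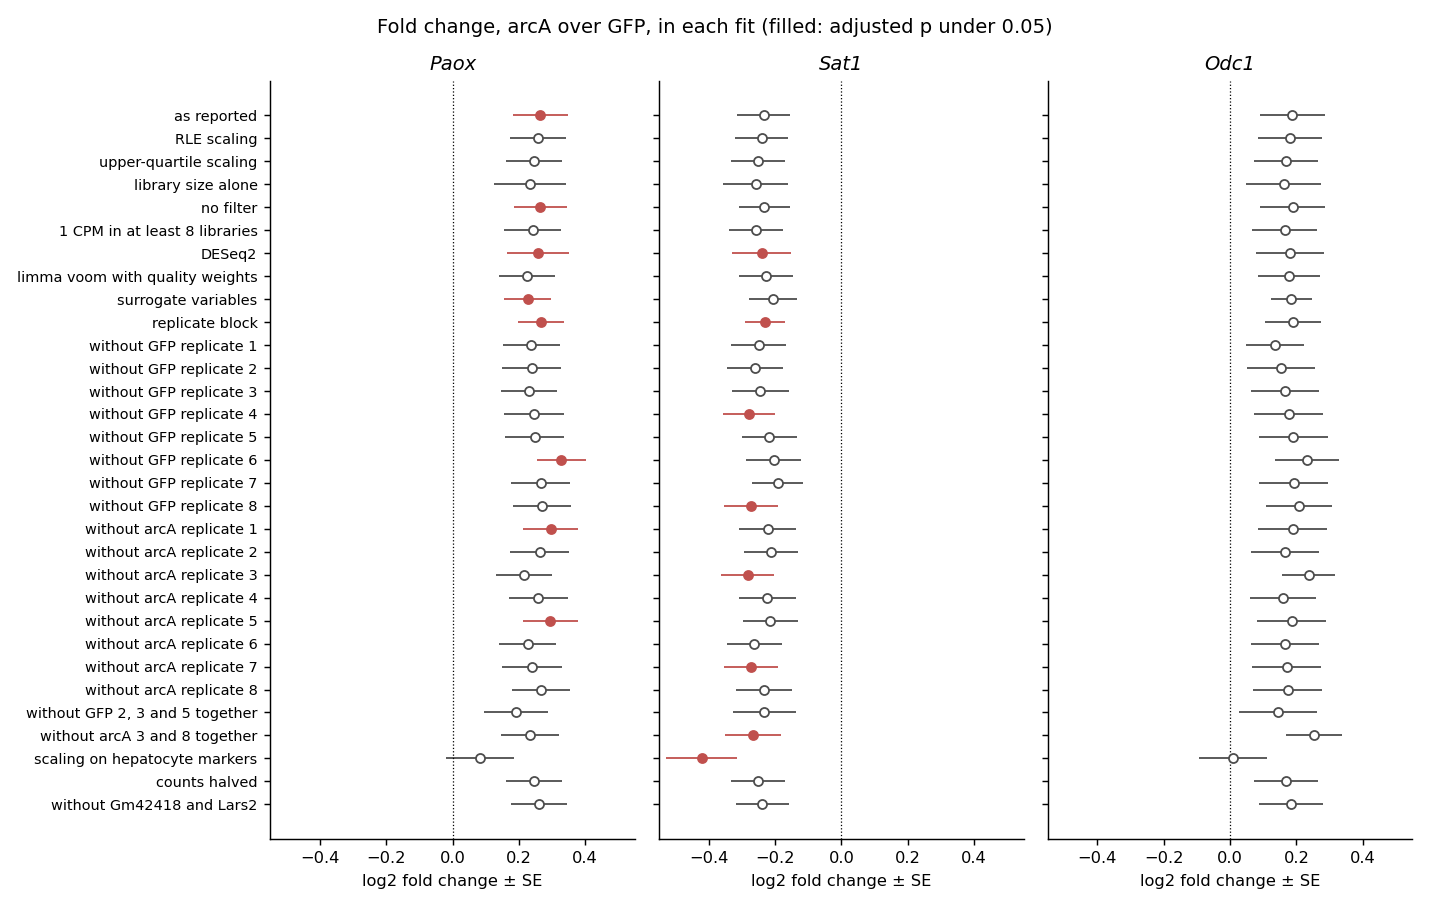
Log2 fold change ± SE, arcA over GFP, of Paox, Sat1 and Odc1 in the reported fit (top row) and in 30 alternatives; filled red points had an adjusted p under 0.05. Paox is above 0 and Sat1 below 0 in every fit shown, with Paox past the threshold in 7 and Sat1 in 8 of the 30 alternatives and Odc1 in 0.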

How the data were processed

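RNA sequencing of 16 livers (8 per group) was used. The authors deposited a table of raw counts, with gene symbols as lines and libraries as columns. The submitters' processing notes name bcl2fastq, STAR 2.5.1a and featureCounts 1.4.6-p5 (Subread) and GRCm38. The sources used here do not give annotation release, strand setting or how mates were counted; 69.8% of counts from 1 to 20 were even. Of 40757 lines, 348 exact copies were removed, and of lines that shared a symbol the one with most counts was kept (85 lines with 47 counts dropped). Groups follow the labels. Genes were tested in edgeR 4.0.16 under R 4.3.3 (robust quasi-likelihood F, TMM scaling, filterByExpr, no term but group), with Benjamini-Hochberg adjustment over 14476 genes. Log2 CPM used a prior count of 2. Permutation tests of pairs were two-sided with 100000 resamples. Alternatives used DESeq2 1.42.0, limma 3.58.1 (voom), sva 3.50.0 (5 surrogate variables), other scalings and filters, a replicate block and each library left out. The pipeline was tested on simulated counts.

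The polyamine genes, the gene lists and the alternatives were chosen with earlier results of these data known. Named genes were the 10 members, called genes of each wider list (up to 4), Arg1, Mat1a, Eif5a, Oaz3, Myc and Atp13a3, and the 3 genes most like each called member. Within groups, libraries differed far beyond sampling noise (chi-square per gene 18.5 to 464 over 56 pairs). Each library came from 1 mouse and counted as 1 sample. The p-values of the group comparison set the difference between groups against the spread between these libraries.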

Additional observations from a re-analysis of the deposited data

Results flagged for a closer look

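Of 36 groups of 8 livers examined (18 genes in each treatment group), 2 held a liver far from the others, where chance flags about 1 in 20. Odc1 in arcA 3, at 24.5 CPM, lay below the other arcA livers by 68.5% of that group's range. Arg1 in GFP 5, at 481 CPM, lay below the other GFP livers by 68.2% of that group's range.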

How the results depend on the processing

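Of the 10 polyamine genes, the 1 called higher became 0 with RLE scaling, upper-quartile scaling, library size alone, the filter at 1 CPM (8 or more libraries), limma voom, scaling on hepatocyte markers, counts halved, without Gm42418 and Lars2, without GFP 2, 3 and 5, and without arcA 3 and 8; the last 5 were chosen after seeing the data. The 0 called lower became 1 with DESeq2 and without arcA 3 and 8, and 2 with scaling on hepatocyte markers (Sat1 and Srm). When 1 library was left out, 0 to 1 were higher and 0 to 1 lower. Of the wider genes, 0 called higher became 3 with DESeq2, 2 with limma voom and 2 without arcA 3 and 8 (0 to 2 without 1 library). The 2 called lower became 1 with the 1 CPM filter, which removed Aldh18a1 from testing, and 1 without GFP 2, 3 and 5. With scaling on hepatocyte markers 8 wider genes were called lower, and without 1 library 1 to 3 were. Over all genes, 618 were higher and 951 lower; library size alone gave 253 higher, the 1 CPM filter 407, leaving out GFP 2, 3 and 5 369, and scaling on hepatocyte markers 68 higher and 2864 lower, and fits without 1 library gave 389 to 620 higher and 732 to 1096 lower. Rises were 39.4% of calls, but 24.0% with library size alone and 2.32% with scaling on hepatocyte markers.

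Signs turned only where the difference was not called. Oaz1 and Oaz2 were -0.0039 and -0.0033 with upper-quartile scaling, -0.0053 and -0.0066 with library size alone, -0.0092 and -0.0088 with the 1 CPM filter, -0.0040 and -0.0024 with counts halved and -0.17 and -0.17 with scaling on hepatocyte markers; without 1 library they ran from -0.013 to 0.030 for Oaz1 (negative in 4 of 16 fits) and from -0.0090 to 0.031 for Oaz2 (negative in 6 of 16). Smox was 0.082 with surrogate variables, 0.011 without GFP 2, 3 and 5, 0.029 without arcA 3 and 8, and -0.13 to 0.029 without 1 library (positive in 3 of 16). Scaling on hepatocyte markers gave -0.11 for Azin1, -0.037 for Mat1a and -0.070 for Atp13a3. With library size alone, r was 0.185 for Odc1 with Amd1, 0.220 for Odc1 with Sat1, 0.564 for Sat1 with Smox (adjusted p = 0.0463) and 0.659 for Oaz1 with Oaz2 (adjusted p = 0.0177); without the 2 livers farthest from the median it was 0.201 for Odc1 with Amd1, 0.124 for Odc1 with Sat1 and 0.390 for Odc1 with Azin1. The causes were not tested.

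The labels number mice 1 to 8 in each group, and the numbers did not pair the livers: same-numbered livers correlated at -0.053 to 0.199 over 500 genes, and 1 of 8 correlated best with its own number. With the replicate block, 592 genes were higher and 876 lower, 1 polyamine gene was higher (Paox, adjusted p = 0.0260) and 1 lower (Sat1, adjusted p = 0.0271), and 1 wider gene was higher. Halving the counts left the standard error of Smox at 0.148, against 0.150 with all counts. Each count was simply divided and rounded, which adds no sampling noise, so this cannot show how depth limits Smox. The 7 wider genes below the filter had too few counts to be tested.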
